A study of Mus musculus with 24 samples.

Results

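Intercalated cells are the acid-base cells of the connecting tubule and collecting duct, and 9 of their genes were followed in whole kidneys of mice that lost Pex5, the import receptor for peroxisomal proteins, in the renal tubule. The members were taken by symbol and grouped by role, with Slc4a1, Slc26a7 and Atp6v0d2 as type A genes, Slc26a4 and Slc4a9 as type B genes, and Atp6v1b1, Atp6v1g3, Car2 and Foxi1 as genes of both types. All 9 were among the 16092 genes tested of the 55335 genes in each file. Kidney RNA of 24 mice on the C57BL/6J background was sequenced, with 6 mice per group. The cKOm (male) and cKOf (female) mice were Pex5 lox/lox/Pax8-rtTA/LC1, in which doxycycline (DOX) turns on Cre wherever the Pax8 promoter is active, along the renal tubule. The Ctrlm and Ctrlf mice were littermates with the Pex5 lox/lox alleles and without the Pax8-rtTA and LC1 transgenes, so that all 4 groups carried the floxed alleles and drank DOX. The paper found almost no PEX5 protein in cKOm, but some protein and residual full-length Pex5 mRNA in cKOf. It proposes that excision was incomplete in cKOf. In comparisons of male and female changes, sex and the extent of Pex5 loss therefore cannot be told apart. DOX was given for 2 weeks from 8 weeks of age, and kidneys were collected 4 weeks after it ended, at 14 weeks of age. The labels give ZT9 (9 hours after lights on) as the time of tissue collection but ZT3 for all experiments, so the time of day is not settled. Depth ran from 19376152 to 28470831 counted reads, and the group medians (Ctrlm 21603949, cKOm 21528283, Ctrlf 22569484, cKOf 20386767) were close.

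Type A cells secrete acid into the urine through an apical proton pump, the vacuolar H+-ATPase (V-ATPase), and return bicarbonate to the blood through the basolateral exchanger AE1, the product of Slc4a1. Type B cells do the reverse and secrete bicarbonate through the apical chloride-bicarbonate exchanger pendrin, the product of Slc26a4. Both types make protons and bicarbonate from carbon dioxide with the cytosolic carbonic anhydrase Car2, and both depend on the forkhead transcription factor Foxi1 for their identity. Slc26a7 is an anion exchanger of type A cells of the outer medulla, and Slc4a9 encodes AE4, a basolateral transporter of type B cells. Atp6v1b1, Atp6v1g3 and Atp6v0d2 encode V-ATPase subunits enriched in intercalated cells. Car2 is also present in other tubule segments and Slc4a1 in red blood cells, and Atp6v0d2 is not restricted to type A cells. Cell types were not separated here, and in whole kidneys fewer cells of a type and less RNA per cell cannot be told apart.

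In GRCm38, Slc4a1 lies on chromosome 11 from 102348824 to 102366203 (minus strand), Slc26a4 on chromosome 12 from 31519827 to 31559969 (minus strand), Car2 on chromosome 3 from 14886273 to 14900770 (plus strand), and Atp6v1b1 on chromosome 6 from 83742990 to 83758855 (plus strand). Foxi1 lies on chromosome 11 from 34204338 to 34208089 (minus strand), Slc26a7 and Atp6v0d2 both lie on chromosome 4, and Atp6v1g3 lies on chromosome 1. Reads were counted over all exons of a gene, so the kidney and red cell transcripts of Slc4a1 were counted together. No other annotated gene overlapped any of the 9 members. Promoters of 4 of the 9 were matched in RefSeq (GRCm38.p6), those of Slc26a4, Atp6v1b1, Atp6v1g3 and Foxi1. The forkhead core motif TGTTTAC was searched on both strands (GTAAACA on the other) from 250 bases before the start to 50 after it. It was found in 1199 of 32851 promoters (3.65%) and in 1 of the 4, Atp6v1b1, where it begins 98 bases before the start. The 200 bases from 250 to 51 bases before the start are shown for Atp6v1b1 (chr6:83742767-83742966, plus strand), with the motif in capitals, and for the type B gene Slc26a4 (chr12:31560035-31560234, minus strand), where the motif was not found. A match describes the letters only and is not evidence of a bound site.
Atp6v1b1: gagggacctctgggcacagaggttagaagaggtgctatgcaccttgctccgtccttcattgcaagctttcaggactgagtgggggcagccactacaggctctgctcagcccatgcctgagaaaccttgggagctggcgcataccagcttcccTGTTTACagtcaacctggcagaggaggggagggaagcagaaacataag
Slc26a4: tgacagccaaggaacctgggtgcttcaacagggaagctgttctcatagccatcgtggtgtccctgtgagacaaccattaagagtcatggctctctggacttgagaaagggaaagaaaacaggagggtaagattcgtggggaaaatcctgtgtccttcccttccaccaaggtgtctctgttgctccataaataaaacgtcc

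Some libraries stood apart before any comparison of the members. The summed level of 10 hepatocyte genes, led by Alb (albumin), was 452 to 943 CPM (reads scaled to the size of a library) in 4 Ctrlm kidneys and 91.7 and 103 in the other 2. It was 496 in 1 cKOm kidney and 98.3 to 134 in the other 5, and no female kidney was above 123. Male calls that were lost without these 5 male kidneys, which leaves 2 Ctrlm against 5 cKOm, are given with their values in that subset. For the deleted gene, Pex5, the Ctrlm mean was 54.3 ± 4.63 CPM and the cKOm mean 43.7 ± 1.94 (SD, n = 6), with 50.3 ± 6.97 for Ctrlf and 43.6 ± 3.55 for cKOf. The log2 change of cKO over Ctrl was -0.31 in males (standard error, SE, 0.08, adjusted p = 0.0219 by edgeR) and -0.21 in females (adjusted p = 0.177). The reads come from all cells of the kidney and all exons of Pex5, and the male call was lost without the 5 kidneys (-0.26, edgeR adjusted p = 0.388), with the hepatocyte level as a covariate (-0.32, adjusted p = 0.0921), without Ctrlm replicate 2 (-0.27, adjusted p = 0.0657) and without cKOm replicate 4 (-0.30, adjusted p = 0.0508).

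The 9 genes spanned a wide range of levels in control males. Scaled to exon length, Car2 was highest with 114 ± 7.58 CPM per kb (SD, n = 6). The V-ATPase subunits Atp6v0d2 (21.6 ± 3.75) and Atp6v1b1 (20.3 ± 1.52) and the pendrin gene Slc26a4 (20.1 ± 2.37) followed, and these 3 did not differ beyond their spread. Foxi1 (11.6 ± 1.45), Slc4a9 (10.96 ± 2.29), Atp6v1g3 (10.7 ± 1.61) and Slc4a1 (9.58 ± 2.18) formed the next level, again within their spread. Slc26a7 was lowest with 0.803 ± 0.212 CPM per kb. In cKOm the AE1 gene had left that level, with 5.98 ± 0.520 CPM per kb for Slc4a1 against 12.2 ± 2.45 for Atp6v1g3, 13.4 ± 2.499 for Foxi1 and 14.03 ± 1.23 for Slc4a9. The lowest value of any member was 1.72 CPM (40 counts, Slc26a7 in a Ctrlf kidney), above the floor of 3 counts, which was at most 0.157 CPM and covers counting error only.

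The question for males and for females was how the loss of tubular Pex5 bore on these acid-base genes. In males, Slc4a1 fell, while Slc26a4, Atp6v1b1 and Car2 rose and the other 5 did not pass the threshold. In females, Slc4a1 fell and no other member passed. Among the 9, 3 were called higher and 1 lower in males, where 9.05% of all tested genes were called (4.14% higher and 4.9% lower), and 0 higher and 1 lower in females, where 0.851% were called (0.391% higher and 0.46% lower). The cKO and Ctrl kidneys did not overlap for 4 of the 9 in males (7.38% of all tested genes) and for 1 of the 9 in females (0.559%). The median log2 change in males was -0.43 over the 3 type A genes, 0.41 over the 2 type B genes and 0.25 over the 4 genes of both types, beside 0.01 over all tested genes. In females these medians were -0.18, 0.15 and 0.09, beside 0.00 over all tested genes. In each sex the median of the 3 type A genes is the value of Slc26a7, which did not pass, and Atp6v0d2 went the other way. Medians over so few genes describe these genes only. Without the 5 male kidneys rich in hepatocyte transcripts, 1 member was called higher (Car2) and 1 lower (Slc4a1) in males. Over all tested genes, 593 were called in males in that subset.

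**Figure D1:**
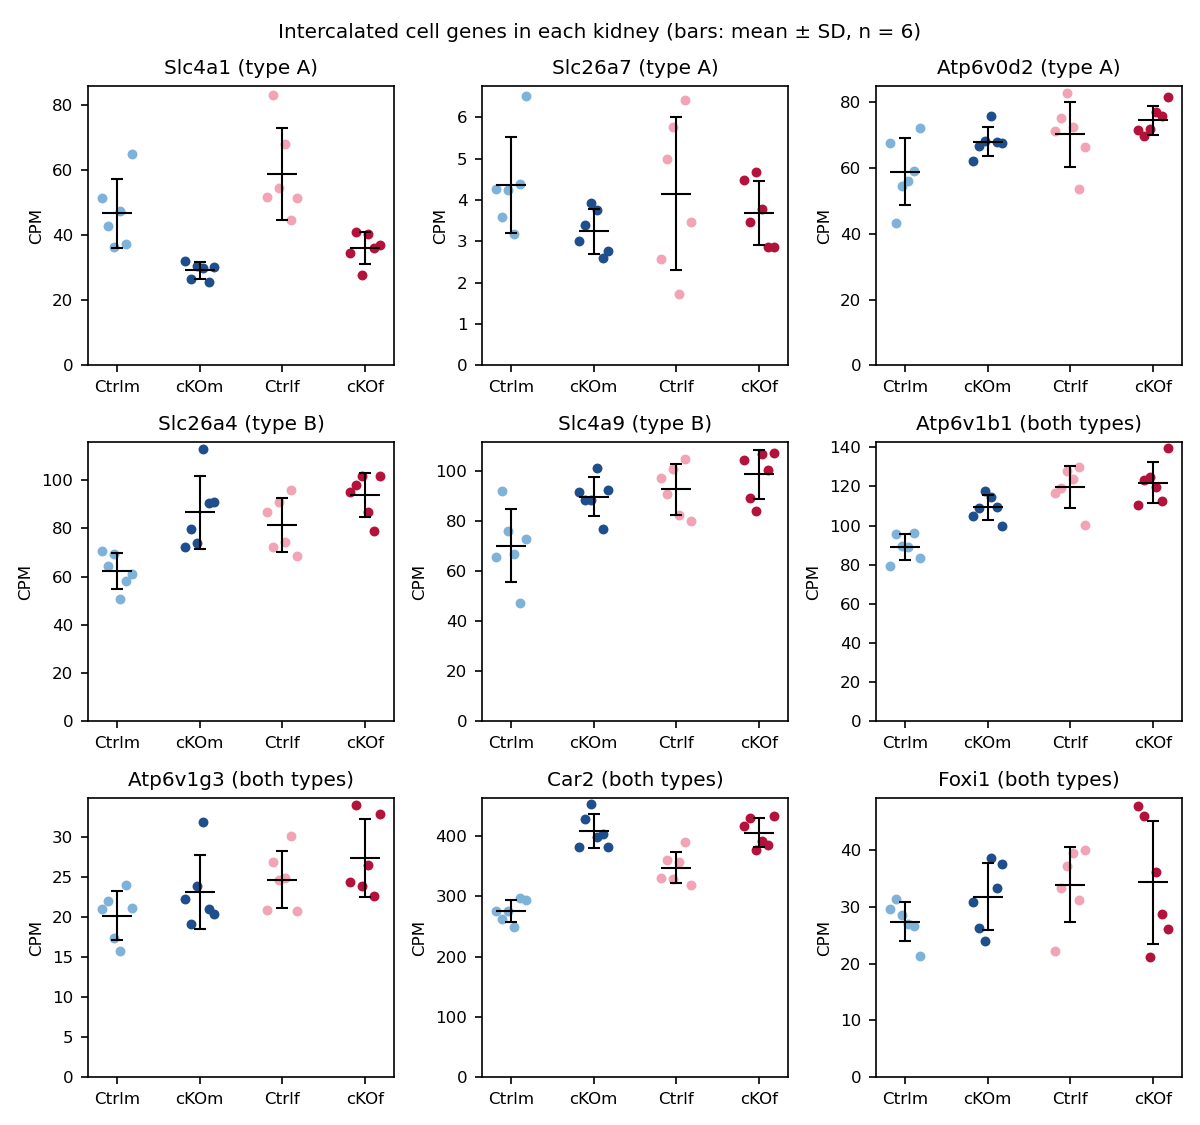
CPM of the 9 genes in each of the 24 kidneys, by group on the x axis, with the mean and SD of 6 kidneys as bars. Every cKO kidney lies below every Ctrl kidney of the same sex for Slc4a1, and every cKOm kidney lies above every Ctrlm kidney for Slc26a4, Atp6v1b1 and Car2.

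Slc4a1, which encodes the bicarbonate exit of type A cells, was the member that changed in both sexes. Ctrlm kidneys ranged from 36.5 to 65.2 CPM with a median of 45.2, and cKOm kidneys from 25.6 to 32.1 with a median of 30.2. Ctrlf kidneys ranged from 44.7 to 83.1 CPM with a median of 53.2, and cKOf kidneys from 27.7 to 41.2 with a median of 36.7. All 6 cKO kidneys were below all 6 Ctrl kidneys in each sex. The mean in cKO mice was 62.4% of the control mean in males and 61.4% in females (two-sided exact permutation test, p = 0.00216 in each sex, the smallest that 6 kidneys against 6 allow, without adjustment for the 30 such tests made). The log2 change was -0.68 in males (SE 0.14, adjusted p = 0.00259 by edgeR) and -0.70 in females (SE 0.14, adjusted p = 0.00172). The change did not differ detectably between the sexes (log2 difference 0.02, SE 0.20, adjusted p = 0.972 by edgeR). Slc4a1 stayed past the threshold in both sexes under each of 11 other settings and with any 1 of the 24 kidneys left out, and without the 5 male kidneys its log2 change in males was -0.85 (adjusted p = 0.0238).

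Slc4a1 is also a red cell gene, so erythroid transcripts were read beside it. Of 9 erythroid genes listed, 7 were tested and 0 passed in either sex (edgeR), with 1 at an unadjusted p under 0.05 in males, Epb42, and 0 in females. Their median log2 change was -0.23 in males and -0.40 in females, with 5 of the 7 at negative values in each sex. The list summed to 84.9 ± 25.1 CPM in Ctrlm and 74.4 ± 12.2 in cKOm, and 128 ± 60.2 in Ctrlf and 96.0 ± 43.8 in cKOf (SD, n = 6), with overlap in each sex. Its most abundant gene was Hba-a1 (alpha globin), with 28.4 ± 10.01 CPM in Ctrlm and 23.2 ± 4.70 in cKOm. The ratio of Slc4a1 to Hbb-bs (beta globin) reads was 2.15 ± 0.581 in Ctrlm and 1.55 ± 0.581 in cKOm, and 1.87 ± 0.664 in Ctrlf and 1.59 ± 0.679 in cKOf, and the groups overlapped in each sex. When the erythroid level entered the fit as a covariate, Slc4a1 fell by 0.66 on the log2 scale in males (edgeR adjusted p = 4.70e-04) and by 0.61 in females (adjusted p = 0.00152). Within groups, Ctrlm replicate 6 (129 CPM) and Ctrlf replicate 2 (232 CPM) were highest for both the erythroid sum and Slc4a1. In cKOf, replicates 2, 4 and 6 were highest for both. In cKOm, replicate 1 had the lowest erythroid sum (52.7 CPM) and the highest Slc4a1. How much of the fall comes from red cell transcripts was not tested.

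The other type A members did not pass in either sex. Slc26a7 ranged from 3.18 to 6.52 CPM in Ctrlm (median 4.25) and from 2.59 to 3.92 in cKOm (median 3.21), with a log2 change of -0.43 (SE 0.24, adjusted p = 0.423 by edgeR), and of -0.83 (adjusted p = 0.311) without the 5 male kidneys. In females its log2 change was -0.18 (SE 0.24, adjusted p = 0.805), and Ctrlf kidneys alone spanned 1.72 to 6.43 CPM. Atp6v0d2, a subunit of the membrane part of the V-ATPase, ranged from 43.3 to 72.0 CPM in Ctrlm (median 57.6) and from 62.1 to 75.6 in cKOm (median 67.7). Its log2 change was 0.21 in males (SE 0.10, adjusted p = 0.302 by edgeR) and 0.09 in females (SE 0.10, adjusted p = 0.759), and without the 5 male kidneys the male value was -0.02 (adjusted p = 0.979).

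Slc26a4, the pendrin gene of type B cells, rose in males. Ctrlm kidneys ranged from 50.8 to 70.6 CPM (median 62.9) and cKOm kidneys from 72.4 to 113 (median 85.2), without overlap. The log2 change was 0.47 (SE 0.11, adjusted p = 0.00686 by edgeR). In females the ranges were 68.6 to 95.9 CPM in Ctrlf (median 80.7) and 79.0 to 102 in cKOf (median 96.6), which overlapped, and the log2 change was 0.20 (SE 0.11, adjusted p = 0.373). The male call held with any 1 kidney left out, but not without the 5 male kidneys rich in hepatocyte transcripts, where the log2 change was 0.41 (adjusted p = 0.166).

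Slc4a9, the AE4 gene of the same cells, ranged from 47.4 to 92.0 CPM in Ctrlm (median 69.8) and from 76.9 to 101 in cKOm (median 90.0). The groups overlapped because 1 Ctrlm kidney reached 92.0 CPM. The log2 change was 0.36 in males (SE 0.11), just outside the threshold with an edgeR adjusted p of 0.0610, and 0.09 in females (SE 0.11, adjusted p = 0.773). The male value passed with DESeq2 (adjusted p = 0.0498), with limma-voom (adjusted p = 0.0491), without Ctrlm replicate 2 (log2 change 0.45, edgeR adjusted p = 0.00931) and without cKOm replicate 5 (0.40, adjusted p = 0.0478), among other settings. Without the 5 male kidneys it was 0.51 (edgeR adjusted p = 0.0821).

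Car2, the carbonic anhydrase shared by both types, rose most clearly in males. Ctrlm kidneys ranged from 249 to 298 CPM (median 275) and cKOm kidneys from 382 to 453 (median 401), a gap wider than the range of either group. The log2 change was 0.56 (SE 0.07, adjusted p = 2.13e-06 by edgeR), and it was 0.43 (adjusted p = 0.0300) without the 5 male kidneys. Ctrlf kidneys ranged from 319 to 390 CPM (median 343) and cKOf kidneys from 377 to 434 (median 404), with 4 of 6 cKOf above every Ctrlf kidney. In females the log2 change was 0.22 (SE 0.07), and it missed the threshold with an edgeR adjusted p of 0.0526 but passed with DESeq2 (adjusted p = 0.0287) and limma-voom (adjusted p = 0.0484), and with edgeR without Ctrlf replicate 5 (0.26, adjusted p = 0.0214) or cKOf replicate 3 (0.24, adjusted p = 0.0432). It did not pass with the replicate number as a block (edgeR adjusted p = 0.0928) or with the hepatocyte covariate (0.0883). Nor did it pass without the 5 male kidneys (edgeR adjusted p = 0.141). The edgeR adjusted p reached 0.299 over the 11 other settings and 0.121 with 1 kidney left out. The cKO means of the sexes lay side by side, at 408 ± 27.9 CPM in cKOm and 406 ± 23.8 in cKOf (SD, n = 6). Set against each other, the male and female changes gave a log2 difference of 0.34 (SE 0.10, adjusted p = 0.0551 by edgeR), with an adjusted p of 0.0324 by DESeq2, and of 0.0432 and 0.0394 by edgeR without Ctrlm replicate 5 and without cKOf replicate 6. This difference was 0.22 (edgeR adjusted p = 0.444) without the 5 male kidneys and 0.30 (adjusted p = 0.171) with the hepatocyte covariate. With the replicate number as a block it was 0.34 (edgeR adjusted p = 0.108).

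Atp6v1b1, the intercalated cell form of the B subunit of the V-ATPase, ranged from 79.5 to 96.1 CPM in Ctrlm (median 89.1) and from 99.8 to 118 in cKOm (median 109), without overlap. Its log2 change in males was 0.30 (SE 0.07, adjusted p = 0.0136 by edgeR). In females the means were 120 ± 10.8 CPM in Ctrlf and 122 ± 10.4 in cKOf (SD, n = 6), with a log2 change of 0.03 (SE 0.07, adjusted p = 0.923). The male call was lost without Ctrlm replicate 6 (log2 change 0.25, edgeR adjusted p = 0.0726), without the 5 male kidneys (0.23, adjusted p = 0.396) and when every gene with a count was tested (0.27, adjusted p = 0.0772).

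The remaining members of both types did not pass. Atp6v1g3, a G subunit of the same pump, had log2 changes of 0.19 in males (SE 0.13, adjusted p = 0.536 by edgeR) and 0.15 in females (SE 0.13, adjusted p = 0.668), and without the 5 male kidneys the male value was -0.12 (adjusted p = 0.846). Foxi1, the transcription factor of the lineage, ranged from 21.4 to 31.3 CPM in Ctrlm and from 23.9 to 38.6 in cKOm, with a log2 change of 0.21 (SE 0.17, adjusted p = 0.621 by edgeR). In females Foxi1 was 33.8 ± 6.61 CPM in Ctrlf and 34.2 ± 10.9 in cKOf (SD, n = 6), with a log2 change of 0.02 (SE 0.17, adjusted p = 0.980). None of the 9 members passed the test of the difference between the sexes (edgeR), with 2 at an unadjusted p under 0.05, Atp6v1b1 and Car2, while 2.31% of all tested genes passed, and Car2 was the 1 member that passed with DESeq2.

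**Figure D2:**
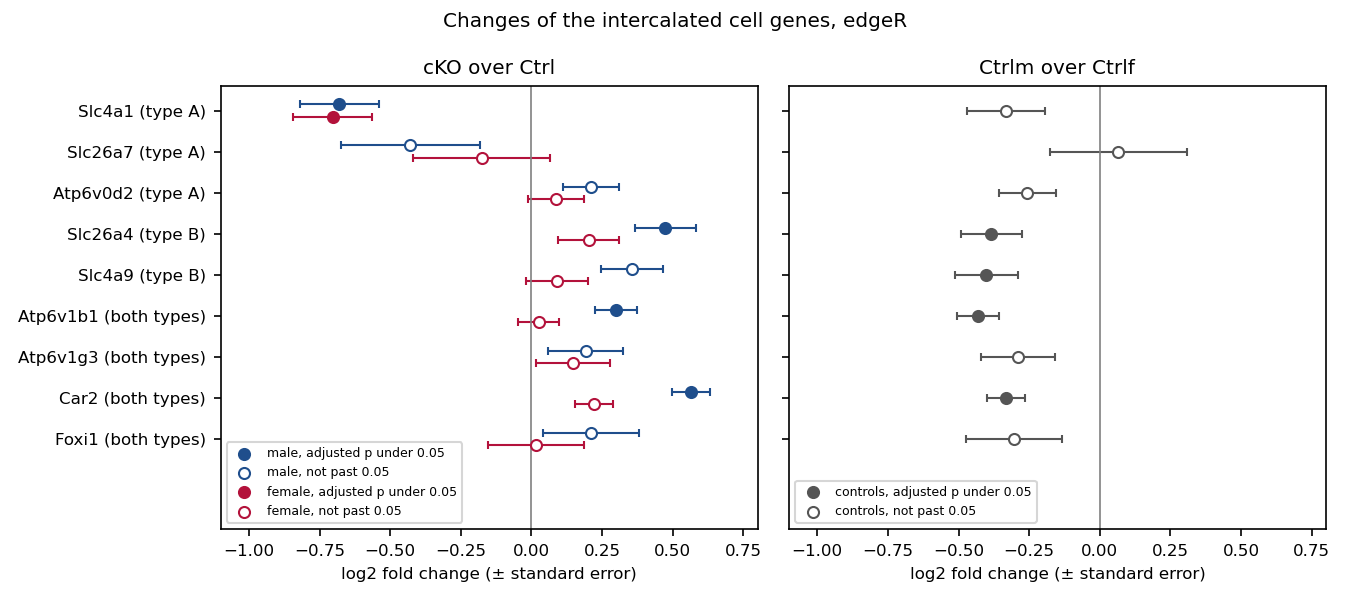
Log2 change of each member with its standard error, for cKO over Ctrl in males (blue) and females (red) on the left and for Ctrlm over Ctrlf (grey) on the right, with filled points for an edgeR adjusted p under 0.05. Slc4a1 has filled points left of 0 in both sexes, and Slc26a4, Atp6v1b1 and Car2 have filled points right of 0 in males.

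The control kidneys of the sexes also differed in members. Slc26a4, Slc4a9, Atp6v1b1 and Car2 were lower in Ctrlm than in Ctrlf, and no member was called higher, where 16.8% of all tested genes were called (8.71% higher and 8.11% lower). The log2 change of Ctrlm over Ctrlf was -0.38 for Slc26a4 (SE 0.11, adjusted p = 0.0128 by edgeR), -0.40 for Slc4a9 (0.11, adjusted p = 0.0111), -0.43 for Atp6v1b1 (0.07, adjusted p = 9.38e-05) and -0.33 for Car2 (0.07, adjusted p = 6.73e-04). All 6 Ctrlm kidneys were below all 6 Ctrlf kidneys for 2 of the 9 members, Atp6v1b1 and Car2 (3.4% of all tested genes). For Slc4a1 the log2 change of Ctrlm over Ctrlf was -0.33 (SE 0.14, adjusted p = 0.106). This comparison shares its Ctrlm kidneys with the male comparison. Side by side, the means of Slc26a4 were 62.4 CPM in Ctrlm and 86.7 in cKOm, and 81.5 in Ctrlf and 93.8 in cKOf, and those of Atp6v1b1 were 88.8, 109, 120 and 122. Without the 5 male kidneys rich in hepatocyte transcripts, where 1554 of the tested genes were called between the controls, Slc4a9 (-0.61, edgeR adjusted p = 0.00861) and Atp6v1b1 (-0.39, adjusted p = 0.0319) were still called lower in Ctrlm. The calls of Slc26a4 (-0.42, adjusted p = 0.0577) and Car2 (-0.21, adjusted p = 0.229) were lost there. In that subset Slc4a1 was at -0.18 (edgeR adjusted p = 0.652) and Atp6v0d2 at -0.07 (adjusted p = 0.763). All 4 calls held with any 1 kidney left out, and without Ctrlm replicate 6 Slc4a1 (-0.43, edgeR adjusted p = 0.0221) and Atp6v0d2 (-0.30, adjusted p = 0.0321) passed too, the latter also without Ctrlf replicate 5 (-0.31, adjusted p = 0.0215).

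Within a kidney, reads of the type A gene Slc4a1 were set against those of the type B genes, which removes the scaling between libraries. These ratios use the values tested above and are given without a test. The ratio of Slc4a1 to Slc26a4 reads was 0.760 ± 0.200 in Ctrlm and 0.346 ± 0.0707 in cKOm (SD, n = 6), and the highest cKOm kidney (0.444) was below the lowest Ctrlm kidney (0.527). In females it was 0.747 ± 0.252 in Ctrlf and 0.391 ± 0.0731 in cKOf, and the highest cKOf kidney (0.467) and the lowest Ctrlf kidney (0.466) met. Set against the AE4 gene, the ratio of Slc4a1 to Slc4a9 reads was 0.687 ± 0.176 in Ctrlm and 0.326 ± 0.0224 in cKOm, without overlap, and 0.648 ± 0.188 in Ctrlf and 0.368 ± 0.0492 in cKOf, with overlap. Between the type B genes, the ratio of Slc26a4 to Slc4a9 reads was 0.919 ± 0.200 in Ctrlm and 0.967 ± 0.155 in cKOm, and 0.877 ± 0.0457 in Ctrlf and 0.961 ± 0.164 in cKOf. The groups overlapped in each sex, and single Ctrlm kidneys ran from 0.701 to 1.23. The mean log2 CPM of the 3 type A genes minus that of the 2 type B genes was -1.53 ± 0.34 in Ctrlm and -2.23 ± 0.15 in cKOm, and -1.79 ± 0.27 in Ctrlf and -2.16 ± 0.09 in cKOf, with overlap in each sex, and Slc4a1 and Slc26a7 are the type A genes with lower means in cKO kidneys.

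**Figure D3:**
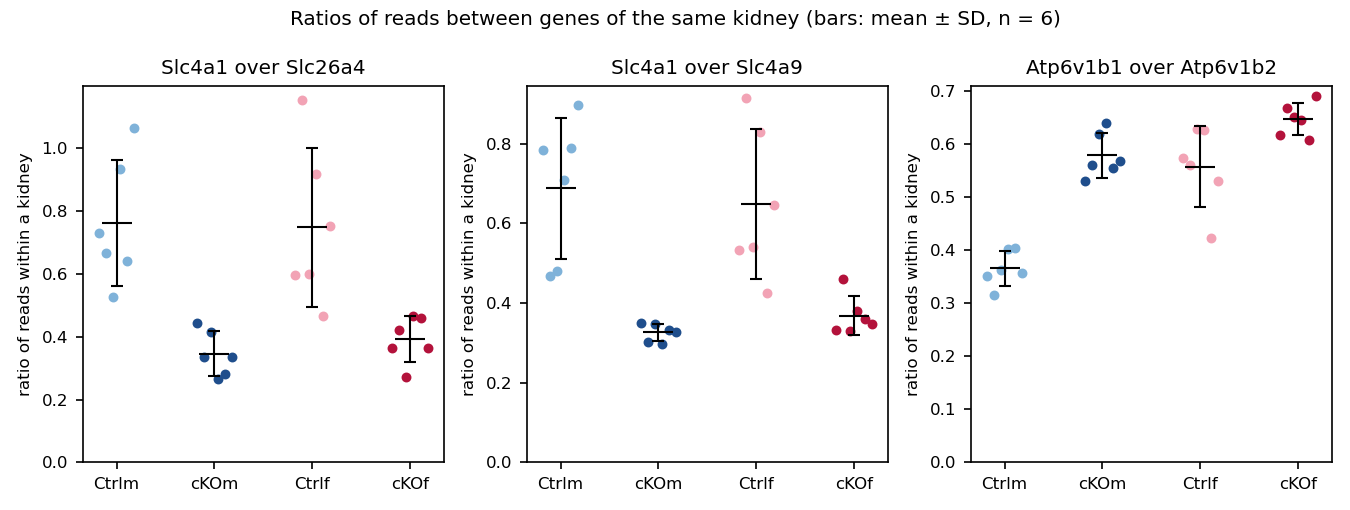
Ratio of the reads of one gene to those of another in each kidney, by group, with the mean and SD of 6 kidneys as bars, for Slc4a1 over Slc26a4, Slc4a1 over Slc4a9 and Atp6v1b1 over Atp6v1b2. The cKOm and Ctrlm kidneys do not overlap in any of the 3 panels, with 0.346 against 0.760 as the means of the first.

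Other markers of the same cells were read from lists set beside the members. Like the members, these lists were chosen with earlier results of these data known, so they are not independent of them. Of all tested genes, 9.05% were called in males and 0.851% in females, and the counts in lists are to be read beside these shares. Of 4 other type A genes, 0 passed in males (edgeR, 1 at an unadjusted p under 0.05) and 1 fell in females, with medians of -0.17 and -0.26 on the log2 scale. The gene that fell in females was Aqp6, an anion-permeable water channel of type A cells, at 48.2 to 66.1 CPM in Ctrlf (median 56.3) and 35.7 to 47.8 in cKOf (median 39.3), without overlap. Its log2 change was -0.48 in females (SE 0.12, adjusted p = 0.0179 by edgeR) and -0.34 in males (SE 0.12, adjusted p = 0.136), where it passed without the 5 male kidneys (-0.72, adjusted p = 0.00958). The female call of Aqp6 was lost when p values were adjusted within each sex (adjusted p = 0.127). Adgrf5, the most abundant of the 4 and a gene also expressed by endothelium, had log2 changes of -0.08 in males and -0.14 in females.

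Of 5 other type B genes, 2 rose in males and 0 passed in females (1 at an unadjusted p under 0.05), with medians of 0.40 and -0.01 on the log2 scale. Slc4a8, a sodium-driven chloride-bicarbonate exchanger, ranged from 7.36 to 12.6 CPM in Ctrlm and from 13.5 to 15.9 in cKOm, without overlap. Its log2 change was 0.59 in males (SE 0.12, adjusted p = 0.00250 by edgeR) and -0.01 in females (adjusted p = 0.978), and the test of the difference gave an adjusted p of 0.0579 by edgeR (from 0.0183 to 0.103 with 1 kidney left out), 0.0391 by limma-voom and 0.0313 by DESeq2. This difference was 0.56 (edgeR adjusted p = 0.236) without the 5 male kidneys and 0.52 (adjusted p = 0.179) with the hepatocyte covariate. With the replicate number as a block it was 0.61 (edgeR adjusted p = 0.0896). Insrr, a receptor that senses alkaline fluid, rose in males by 0.37 on the log2 scale (SE 0.10, adjusted p = 0.0193 by edgeR), a call lost without Ctrlm replicate 6 (0.30, adjusted p = 0.0892), without Ctrlm replicate 5 (0.32, adjusted p = 0.0556) and without cKOm replicate 6 (0.31, adjusted p = 0.0669). The Insrr call was also lost when every gene with a count was tested (0.34, edgeR adjusted p = 0.0605) and when each sex was fitted alone (0.35, adjusted p = 0.0681). Without the 5 male kidneys, the male call of Slc4a8 was lost (0.54, edgeR adjusted p = 0.164), as it was with the hepatocyte covariate (0.48, adjusted p = 0.0546), and Insrr passed at 0.58 (adjusted p = 0.0201). Of 8 other genes of both intercalated types, 0 passed in either sex (edgeR, 3 and 1 at an unadjusted p under 0.05 in males and females). The most abundant of these was Tfcp2l1, a transcription factor of the collecting duct, with a log2 change of 0.23 in males (adjusted p = 0.236) and an adjusted p of 0.992 in females.

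**Figure D4:**
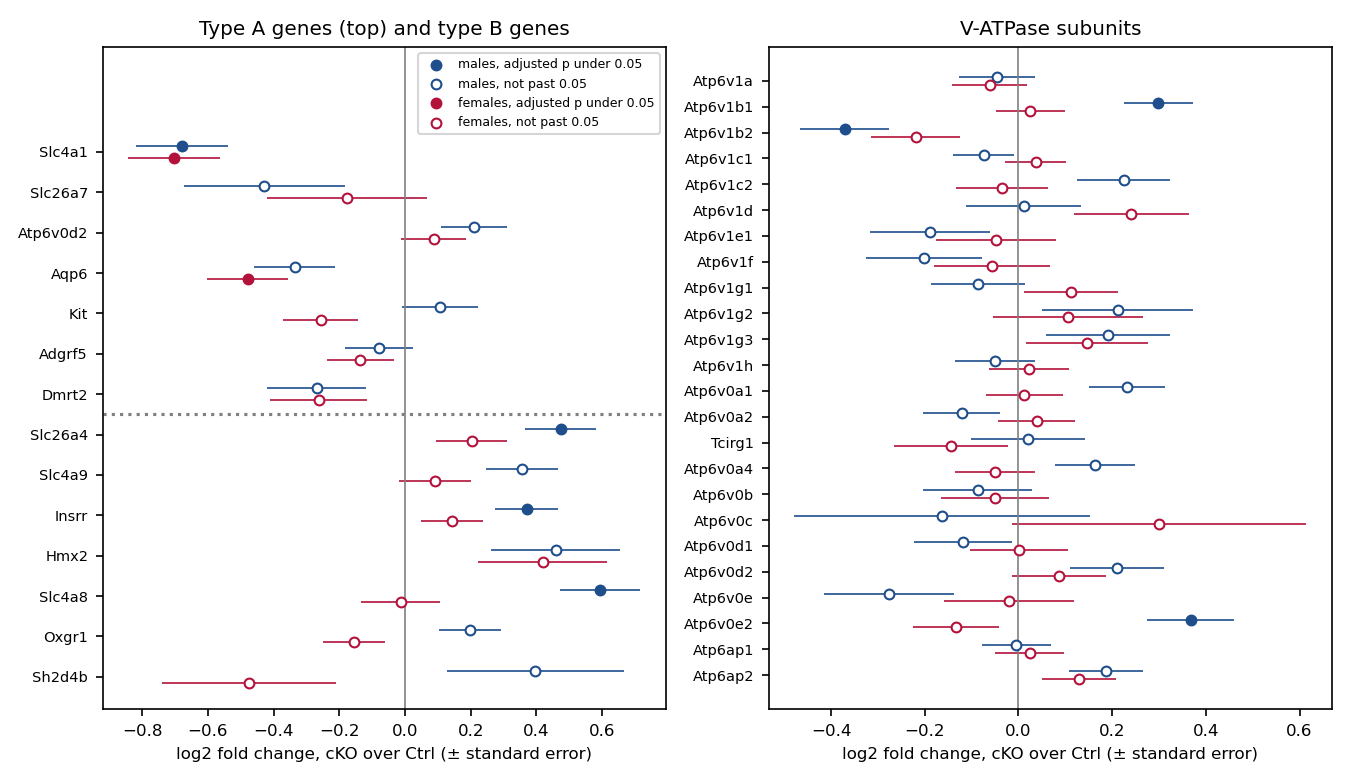
Log2 change of cKO over Ctrl with its standard error in males (blue) and females (red), for type A genes above the dotted line and type B genes below it on the left and for V-ATPase subunits on the right, with filled points for an edgeR adjusted p under 0.05. Among type A genes the filled points are Slc4a1 in both sexes and Aqp6 in females, and among type B genes they are Slc26a4, Insrr and Slc4a8 in males.

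The V-ATPase is assembled in every cell, from subunits of which several have an intercalated cell form and a common form. Of 24 subunits tested out of 25 listed, 2 rose and 1 fell in males and 0 passed in females (edgeR, 1 at an unadjusted p under 0.05), with medians of -0.03 and 0.02 on the log2 scale. Of all tested genes, 9.05% were called in males and 0.851% in females, and Atp6v1b1 was already counted among the members. The count in males is thus not read as a change of the V-ATPase as a whole. Beside the rise of Atp6v1b1, its common counterpart Atp6v1b2 fell in males, from 221 to 303 CPM in Ctrlm (median 235) to 176 to 198 in cKOm (median 192), without overlap. The log2 change of Atp6v1b2 was -0.37 in males (SE 0.10, adjusted p = 0.0181 by edgeR) and -0.22 in females (SE 0.10, adjusted p = 0.236). The ratio of Atp6v1b1 to Atp6v1b2 reads was thus 0.366 ± 0.0334 in Ctrlm and 0.579 ± 0.0420 in cKOm (SD, n = 6), and 0.558 ± 0.0760 in Ctrlf and 0.647 ± 0.0309 in cKOf. The other subunit that rose was Atp6v0e2, by 0.37 on the log2 scale (SE 0.09, adjusted p = 0.0151 by edgeR), a small subunit of the membrane part. The calls of Atp6v1b2 and of Atp6v0e2 each depended on single kidneys. They were lost without Ctrlm replicate 2 for Atp6v1b2 (-0.30, edgeR adjusted p = 0.0597), and without Ctrlm replicate 6 (0.33, adjusted p = 0.0534) or cKOm replicate 3 (0.32, adjusted p = 0.0530) for Atp6v0e2. Without the 5 male kidneys, 0 of the 24 subunits passed in males, with Atp6v1b2 at -0.33 (edgeR adjusted p = 0.278) and Atp6v0e2 at 0.37 (adjusted p = 0.251). With the hepatocyte covariate both were just outside the threshold, at -0.40 for Atp6v1b2 (edgeR adjusted p = 0.0560) and 0.39 for Atp6v0e2 (adjusted p = 0.0508).

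For the other 4 pairs of subunits the groups overlapped in each sex. The ratio of Atp6v1g3 to Atp6v1g1 reads was 0.214 ± 0.0395 in Ctrlm and 0.259 ± 0.0640 in cKOm, and that of Atp6v0d2 to Atp6v0d1 was 0.837 ± 0.199 in Ctrlm and 1.03 ± 0.0727 in cKOm (SD, n = 6). In females the same ratios were 0.275 ± 0.0362 and 0.281 ± 0.0355 for the G subunits and 1.11 ± 0.304 and 1.14 ± 0.122 for the d subunits. The ratio of Atp6v1c2 to Atp6v1c1 reads was 0.207 ± 0.0270 in Ctrlm and 0.252 ± 0.0182 in cKOm, and 0.319 ± 0.0351 in Ctrlf and 0.305 ± 0.0668 in cKOf. That of Atp6v0a4 to Atp6v0a1 was 3.06 ± 0.460 in Ctrlm and 2.91 ± 0.264 in cKOm, and 3.83 ± 0.581 in Ctrlf and 3.64 ± 0.588 in cKOf. The whole list summed to 2662 ± 148 CPM in Ctrlm and 2633 ± 49.4 in cKOm, and to 2689 ± 162 in Ctrlf and 2700 ± 104 in cKOf, led by Atp6v1a, the catalytic subunit.

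Of 19 tested genes of distal acid-base transport and sensing (20 listed, 2 of them Slc4a8 and Insrr described above), 3 rose and 1 fell in males, and 0 passed in females (edgeR, 2 at an unadjusted p under 0.05). The gene that fell was Car4, a carbonic anhydrase on the outer cell surface, from 105 to 161 CPM in Ctrlm (median 152) to 62.7 to 77.9 in cKOm (median 68.4). Its log2 change was -1.03 in males (SE 0.12, adjusted p = 1.39e-06 by edgeR) and 0.05 in females (SE 0.12, adjusted p = 0.902). Female kidneys of both genotypes were at the level of cKOm, with 66.5 ± 7.92 CPM in Ctrlf and 68.9 ± 13.6 in cKOf (SD, n = 6). Car4 is known from the proximal tubule and thick limb as well as from the collecting duct, so its reads need not come from intercalated cells. Car12, a membrane carbonic anhydrase of the collecting duct, rose by 0.31 on the log2 scale in males (SE 0.09, adjusted p = 0.0442 by edgeR), and this call was lost under 6 of 11 other settings (0.26, adjusted p = 0.437 without the 5 male kidneys) and held with 11 of the 24 kidneys left out in turn, with an adjusted p of up to 0.108.

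Markers of neighbouring cells moved in males as well, and their part in the results above was not tested. Among 8 principal cell genes, Scnn1b (a sodium channel subunit) rose by 0.35 (edgeR adjusted p = 0.0103) and Aqp4 (a basolateral water channel) fell by 1.36 (adjusted p = 0.0155) on the log2 scale, and the list summed to 415 ± 37.6 CPM in Ctrlm and 394 ± 51.1 in cKOm (SD, n = 6). Among 5 thick limb genes, Slc12a1 rose by 0.33 (adjusted p = 0.0116) and Egf by 0.33 (adjusted p = 0.00388), and the list, led by Umod, summed to 5474 ± 436 and 6493 ± 308 CPM. None of 4 distal convoluted tubule genes passed (edgeR, 1 at an unadjusted p under 0.05), with 1775 ± 386 and 2078 ± 179 CPM, led by Slc12a3. Among 6 proximal tubule genes, 3 fell, with Slc34a1, a phosphate transporter and the most abundant, at -0.33 (adjusted p = 0.00778), Lrp2 at -0.33 (adjusted p = 0.0192, but 0.0602 without cKOm replicate 3) and Slc22a6 at -0.65 (adjusted p = 4.18e-04), and the list summed to 8335 ± 385 and 6898 ± 294 CPM. In females no gene of these 4 lists passed (edgeR, with Lrp2 as the 1 gene at an unadjusted p under 0.05). Among 5 macrophage genes, Csf1r, the most abundant, fell in males by 0.34 (adjusted p = 0.0399, and up to 0.106 with 1 kidney left out), and the list summed to 106 ± 18.5 and 78.7 ± 9.04 CPM. Among the 10 hepatocyte genes, Alb, Apoa2 and Fgg fell and Serpina1a, which the mouse kidney also expresses, rose by 0.94 in males (adjusted p = 0.0435), and the list summed to 537 ± 378 CPM in Ctrlm and 184 ± 154 in cKOm. With 1 kidney left out, the edgeR adjusted p reached 0.0964 for Alb, 0.0850 for Fgg and 0.0983 for Serpina1a. The call of Alb was also lost with limma-voom (adjusted p = 0.124), with each sex fitted alone (edgeR, 0.115) and with the replicate block (0.0681), that of Fgg with each sex fitted alone (0.0587), and that of Serpina1a with DESeq2 (0.0573) and the replicate block (0.0550).

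Most of these marker calls were lost without the 5 male kidneys rich in hepatocyte transcripts. There the log2 change was 0.40 for Scnn1b (edgeR adjusted p = 0.129), -1.11 for Aqp4 (adjusted p = 0.331), 0.36 for Slc12a1 (adjusted p = 0.169) and 0.38 for Egf (adjusted p = 0.0786). It was -0.34 for Slc34a1 (adjusted p = 0.141), -0.42 for Lrp2 (adjusted p = 0.110) and -0.35 for Csf1r (adjusted p = 0.297), while Slc22a6 still fell (-0.72, adjusted p = 0.0234). Of the hepatocyte genes, Alb was at 0.42 (edgeR adjusted p = 0.690), Apoa2 at -0.83 (adjusted p = 0.428), Fgg at -1.20 (adjusted p = 0.0957) and Serpina1a at 1.48 (adjusted p = 0.0868). With the hepatocyte level as a covariate, the calls of Slc12a1 (0.29, edgeR adjusted p = 0.112), Slc34a1 (-0.30, adjusted p = 0.0806) and Csf1r (-0.28, adjusted p = 0.257) were lost as well. When every gene with a count was tested, those of Slc12a1 (0.30, edgeR adjusted p = 0.0925), Egf (0.31, adjusted p = 0.0658) and Lrp2 (-0.35, adjusted p = 0.0540) were lost.

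The members did not vary together strongly between kidneys of the same group. Over 24 kidneys, deviations of log2 CPM from the group mean were correlated for all 36 pairs of members, and 26 of the correlations were positive, with Pearson's r from -0.30 to 0.58. None passed after Benjamini-Hochberg adjustment over the 36 pairs, and 3 had an unadjusted p under 0.05. The highest was between the V-ATPase subunit Atp6v1g3 and Car2 (r = 0.58, permutation p = 0.00637, adjusted p = 0.144, Spearman's rho = 0.64, p = 0.00239, adjusted p = 0.0860), with r = 0.68 without the 2 kidneys farthest from the median of Atp6v1g3. The lowest was between Slc4a1 and Slc26a4, the leading genes of types A and B (r = -0.30, permutation p = 0.167, adjusted p = 0.637, rho = -0.34, p = 0.127, adjusted p = 0.508), with r = -0.27 without the 2 kidneys farthest from the median of Slc4a1.

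Among 14071 genes with a mean of at least 1 CPM, those whose deviations over the 24 kidneys were most like those of a member were found for Slc4a1, Slc26a4 and Foxi1, and none of those named is in the lists used here. For Slc4a1 the 4 highest were Zfp219 (r = 0.79), Efemp2 (r = 0.75), Cdh13 (r = 0.75) and Fchsd1 (r = 0.74). For Slc26a4 the 5 highest were Mob3b (r = 0.71), Mier2 (r = 0.65), Pmm2 (r = 0.64), Ngef (r = 0.63) and Sord (r = 0.63). For Foxi1 the 5 highest were Rbm15b (r = 0.77), Ajuba (r = 0.77), Spag1 (r = 0.76), Trmt61a (r = 0.76) and Otub2 (r = 0.73). These are the highest of many correlations over kidneys that share group and library composition, and are given as a description.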

How the data were processed

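The authors trimmed reads with cutadapt 1.8, aligned them to GRCm38 with STAR 2.5.3a and deposited HTSeq 0.9.1 counts of reads per gene for each kidney, without normalization (per the labels). The libraries were stranded, and the strand setting of the counting is not given in the sources used here. The 5 closing lines of each file, for reads not counted on a gene, were set aside. Names (55154 of 55335 genes), positions and exon lengths were taken from GENCODE M21. The 9 members and all gene lists were chosen with earlier results of these data known.

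A gene needed 1 CPM or more in any 1 kidney to be tested, in R 4.3.3 with edgeR 4.0.16 (TMM, 1 fit of 4 groups, quasi-likelihood tests). Benjamini-Hochberg adjustment ran over both sexes at once for cKO against Ctrl, and over all genes for the interaction of sex and genotype and for Ctrlm against Ctrlf, at a threshold of 0.05. The study's fit was limma-voom, which was run as an alternative. CPM were scaled by TMM, and log2 CPM used a prior count of 2. Single genes were also compared by exact permutation of 6 kidneys against 6, and correlations by 100000 permutations within groups. Scripts were checked on simulated data. Named are the 9 members, Pex5, list genes past the threshold (at most 5 per list and direction), the most abundant gene of a list, 3 V-ATPase counterparts and the 5 genes most like Slc4a1, Slc26a4 and Foxi1, while Epb42, Hbb-bs and the C and a subunit pairs of the V-ATPase were chosen after their values were seen. Some genes that this rule names are not reported here. Alternatives were limma-voom 3.58.1, DESeq2 1.42.0, RLE normalization, 2 other filters, each sex alone, adjustment within each sex, a replicate block, a hepatocyte or erythroid covariate, each kidney left out and, chosen after seeing the data, only kidneys with under 300 CPM of summed hepatocyte transcripts. Kidneys of a group differed by more than sampling noise in all 60 pairs (chi-square per degree of freedom 9.24 to 91.1), and all errors are between kidneys. Single kidneys stood apart here. Pairs with Ctrlf replicate 5 gave 64.5 to 85.0, and other Ctrlf pairs up to 49.9. Those with cKOf replicate 6 gave 35.8 to 49.5, and other cKOf pairs up to 17.4. Those with Ctrlm replicate 5 gave 41.6 to 91.1, and other Ctrlm pairs up to 59.8.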

Additional observations from a re-analysis of the deposited data

Results flagged for a closer look

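Among 40 sets of 6 kidneys (the 9 members and Pex5 in 4 groups), 2 held a kidney far from the others by Dixon's test, and chance marks about 1 in 20. Slc26a7 was 6.52 CPM in Ctrlm replicate 6 with the next kidney at 4.38 and the lowest at 3.18. Atp6v1g3 was 31.9 CPM in cKOm replicate 4, the cKOm kidney rich in hepatocyte transcripts, with the next at 23.9 and the lowest at 19.1.

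The change with genotype differed between males and females for 4 of the named genes outside the members (edgeR test of the interaction, adjusted over all genes). The log2 difference of the male from the female change was -1.08 for the carbonic anhydrase Car4 (adjusted p = 2.85e-04), 0.50 for the V-ATPase subunit Atp6v0e2 (adjusted p = 0.0360), 0.39 for the thick limb gene Egf (adjusted p = 0.0337) and 1.75 for Serpina1a (adjusted p = 0.0154). Without the 5 male kidneys rich in hepatocyte transcripts the difference for Atp6v0e2 was 0.51 (adjusted p = 0.168), and it was also lost when every gene with a count was tested (0.0796), with the replicate block (0.0678) and with the hepatocyte covariate (0.0633). It passed with 10 of the 24 kidneys left out in turn, with an edgeR adjusted p from 0.0129 to 0.0738. The difference for Egf was lost without the 5 male kidneys (0.45, edgeR adjusted p = 0.0987), when every gene with a count was tested (0.37, adjusted p = 0.194) and with the replicate block (0.39, adjusted p = 0.0603), and it passed with 14 of the 24 kidneys left out in turn (adjusted p from 0.0217 to 0.0720). Those for Car4 and Serpina1a passed under all 9 alternatives and with any 1 kidney left out.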

How the results depend on the processing

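Slc4a1 kept its direction and stayed past the threshold in both sexes under all 11 alternatives, from -0.85 to -0.66 on the log2 scale in males and from -0.71 to -0.61 in females, as did Car2 in males (0.43 to 0.56). In females 2 members passed with limma-voom, DESeq2 or the erythroid covariate, the added one being Car2. Of all tested genes, 148 passed in females with the erythroid covariate, and 43 to 188 over the 11 alternatives. With the hepatocyte covariate 874 genes and 1 V-ATPase subunit passed in males and 1722 genes between the controls, and with p values adjusted within each sex 43 genes passed in females. In the kidneys of low hepatocyte transcripts, chosen after seeing the data, 2 members passed in males and 2 between the controls, 593 genes passed in males, 83 in females and 1554 between the controls, and 0 V-ATPase subunits passed in males (fewer kidneys enter this fit).

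Directions turned for small changes that had not passed. These were Foxi1 in females with limma-voom (-0.023) and the replicate block (-0.0094), and the difference of the male from the female change of Slc4a1 with the erythroid covariate (-0.054). In the kidneys of low hepatocyte transcripts they were Atp6v0d2 (-0.015) and Atp6v1g3 (-0.12) in males and the male to female differences of Slc4a1 (-0.14), Atp6v0d2 (-0.10), Atp6v1g3 (-0.26) and Aqp6 (-0.24), and the called fall of Alb in males became 0.42, by construction of the subset. The cause of the other reversals was not tested.

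With each kidney left out in turn, 3 to 5 members passed in males, 1 to 2 in females and 4 to 6 between the controls. All genes passing ran from 1173 to 1724 in males, from 108 to 173 in females and from 2332 to 2935 between the controls. V-ATPase subunits passing in males ran from 1 to 3 (1 without Ctrlm replicate 6). The log2 change of Atp6v1g3 in males ran from 0.077 to 0.25. Females gave -0.34 to -0.0055 for Slc26a7, -0.021 to 0.052 for Atp6v1b1 and -0.10 to 0.12 for Foxi1. They also gave -0.073 to 0.054 for Slc4a8 and -0.0021 to 0.14 for Car4. The controls gave -0.085 to 0.25 for Slc26a7. The male to female differences were -0.10 to 0.12 for Slc4a1 and -0.069 to 0.12 for Atp6v1g3.

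Kidneys of the same number did not deviate together across groups (median r -0.04 over 36 pairs, 3 of them over 0.1). This gave no sign that the numbers pair kidneys, but a small effect shared by kidneys of the same number could be missed this way. With the replicate number as a block, the fit called 4 members in males and 1 in females, 1268 and 110 of all genes, and 3 V-ATPase subunits in males.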
